A study of Arabidopsis thaliana with 4 samples.

Results

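PRA7 and PRA8 encode prenylated Rab acceptors, small membrane proteins of the PRA1 family, and are also listed as PRA1.F2 (locus AT1G55190) and PRA1.F3 (AT3G13720). They are 2 of the 11371 genes that the array's annotation named here. The members were chosen by symbol, each gene had 1 probe set named here, and they were picked with their response to abscisic acid (ABA) already known. Their values are therefore given as a description with no test. PRA8 was 2.78 times as bright on the ABA arrays as on the mock arrays, 138 ± 2.50 against 49.9 ± 8.53 (mean ± SD, n = 2 arrays each). PRA7 was 1.10 times as bright, 53.2 ± 0.881 against 48.3 ± 1.56.

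Rab GTPases are switches that mark membranes and direct vesicles between compartments, and they carry prenyl lipid tails that anchor them. A carrier protein, GDI, holds Rab proteins in the cytosol, and in yeast and mammals the PRA1 (Yip3) proteins help to release them from GDI onto membranes. Plants have a large PRA1 family, with proteins on the endoplasmic reticulum, the Golgi apparatus and endosomes, and ABA is the hormone of drought responses and seed maturation.

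The samples were shoots of wild-type Arabidopsis thaliana (Col-0), cut from the roots of seedlings grown for 14 days on upright plates in 24 h light. Seedlings were covered for 5 min with 100 uM ABA or with mock solution, both in basal salts with 0.1% Tween 20, and were collected 4 h later. Each treatment had 2 arrays, each from a pool of 20 to 24 shoots, and the labels call them biological replicates. Whole shoots were measured, so a change in the cells present and a change in RNA per cell cannot be told apart.

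The authors' files give a linear intensity per probe set, between -50.9 and 2223 over the arrays, and with 2 arrays per treatment the precision is low. A noise level for each array, the absolute value of its 1st percentile, was 7.54 to 8.76. Of the shoot markers, 4 of 11 loci were named, all above noise on each array, while RBCS1A, CAB1 and LHCA1 were among those not named here. Of 9 root markers, 2 were named. EXPA7, a root hair expansin gene, lay below noise on each array, and PYK10, which encodes a root beta-glucosidase, read 112 ± 11.2 after ABA and 300.1 ± 28.8 in mock shoots. The part of this difference in the results below was not tested.

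PRA8 read 55.9 and 43.9 on the mock arrays and 137 and 140.2 on the ABA arrays. Both ABA arrays lay far above both mock arrays, and the mock arrays were farther apart than the ABA arrays. On the scale used for comparison, log2(intensity + 16), the change was 1.24 (SE 0.12). The 4 differences between an ABA array and a mock array ran from 1.09 to 1.38, while the mock arrays differed from each other by 0.26 and the ABA arrays by 0.033.

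PRA7 read 47.2 and 49.5 on the mock arrays and 53.9 and 52.6 on the ABA arrays. Its groups did not overlap either, but they were separated by 3.17 units of intensity at the closest. The log2 change was 0.11 (SE 0.030), with single differences between an ABA and a mock array of 0.068 to 0.14. Every SE given here is the moderated one of the limma fit described below, which borrows spread from all probe sets. With dim probe sets filtered out at the 40th percentile of mean intensity, the SE was 0.099 for PRA7 and 0.12 for PRA8. The changes themselves stayed the same. The change of PRA8 exceeded that of PRA7 by 1.13 on the log2 scale, with n = 4 arrays.

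**Figure D1:**
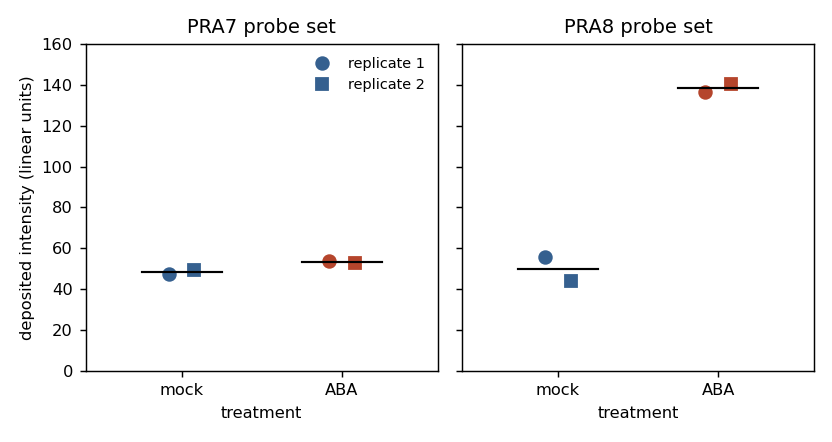
Deposited intensity (linear units) of the PRA7 and PRA8 probe sets on each of the 4 arrays, by treatment. Circles are replicate 1, squares replicate 2 and bars the mean of 2 arrays. PRA8 stands near 138 after ABA against 49.9 in mock shoots, while PRA7 stays between 47.2 and 53.9.

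Both ABA arrays lay above both mock arrays in 12.8% of the 11371 named genes, PRA7 and PRA8 among them, and nothing is read from this since the members were picked from this comparison. With any 1 of the 4 arrays left out, the change of PRA8 stayed between 1.10 and 1.37 and that of PRA7 between 0.081 and 0.13. Each of these is an average of single differences already given above, so the ranges add nothing to them. Genes other than these were tested in a limma fit over all 19371 probe sets with Benjamini-Hochberg adjustment and a threshold of 0.05. Of the named genes, 3.55% were called higher and 17.4% lower, and 36.6% had an unadjusted p under 0.05. Leaving out any 1 array leaves a treatment with 1 array, so only the changes are read from such fits and no calls.

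The sign of the change in PRA7, but not in PRA8, depended on the scaling between arrays. The median change of all probe sets was -0.13, and with probe sets ranked by mean intensity and cut into 5 equal groups, that of the group holding PRA7 was -0.36. PRA7 lay 0.47 above it. In the brightest group, which holds PRA8, the median was -0.33 and PRA8 lay 1.57 above it. The ranking used all 4 arrays, so the ABA arrays helped to place PRA8 in that group. Its mean was 94.2 over the 4 arrays but 49.9 in mock shoots, where PRA7 read 48.3. Among the named genes, 98 had a higher change than PRA8 and 1643 a higher change than PRA7. After quantile normalization, which makes the arrays share 1 distribution, PRA7 changed by 0.41 and PRA8 by 1.51. Scaling by 9 spiked control sets (BioB, BioC, BioDn and CreX) turned PRA7 to -0.26 and left PRA8 at 0.84. It was the only setting tried in which PRA7 lay below 0.

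**Figure D2:**
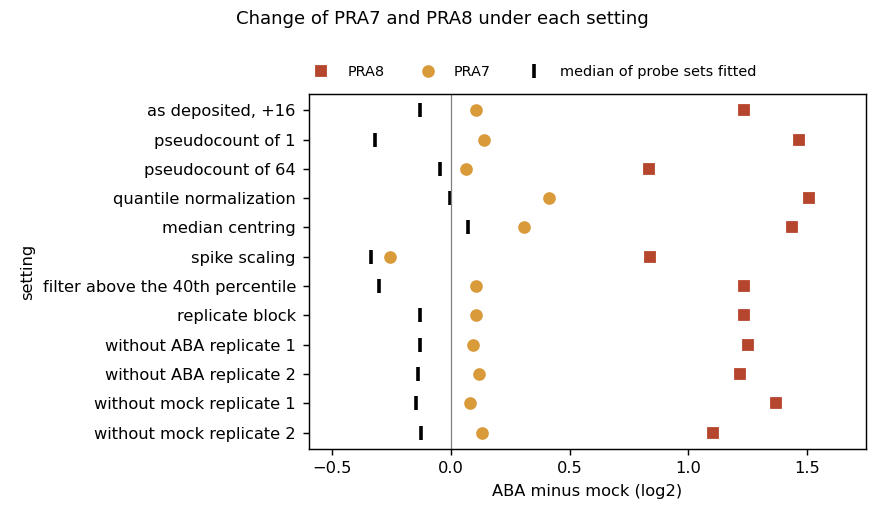
Log2 change (ABA minus mock) of PRA8 (squares), PRA7 (circles) and the median of the probe sets fitted (bars) under each setting. PRA8 stays between 0.83 and 1.51, and PRA7 between -0.26 and 0.41.

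**Figure D3:**
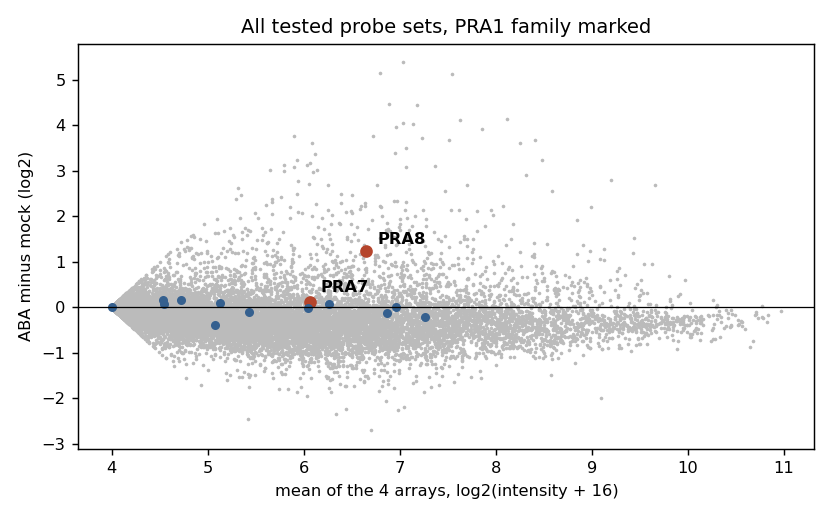
Log2 change (ABA minus mock) against the mean of the 4 arrays on the log2(intensity + 16) scale for all 19371 tested probe sets (grey). PRA7 and PRA8 are red and the other 12 PRA1 genes blue. PRA8 stands apart from the family at 1.24, and the others lie between -0.38 and 0.15.

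PRA7 and PRA8 belong to the F group of the PRA1 family, with PRA1.F1 and PRA1.F4. On chromosome 3 of the TAIR10.1 assembly PRA8 and PRA1.F4 are neighbours with 0 annotated genes lying wholly between them. PRA1.F4, whose protein sits at the Golgi apparatus, read 6.71 and 5.32 on the mock arrays and 5.43 and 11.9 on the ABA arrays. It passed noise on 1 of 4 arrays, so its change of 0.15 (SE 0.17) carries little weight. PRA1.F1 read 18.6 and 17.2 on the mock arrays and 16.9 and 23.8 on the ABA arrays, with overlapping groups and a change of 0.094 (SE 0.12).

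Some of these genes overlap others in the assembly, and the place of each probe set within its gene was not known here. PRA7 overlaps a long non-coding RNA gene, AT1G08037, with no probe set named here, and the end of AT1G55200. PRA8 overlaps the microRNA gene MIR823, and PRA1.F4 overlaps AT3G13700. AT1G55200, looked up after the overlap was seen, read 7.24 ± 0.480 in mock and 5.05 ± 0.350 in ABA shoots (n = 2 each), below noise on each array. The probe set names of the PRA1 genes hold 0 marks of binding to related transcripts.

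Of the 19 loci of the PRA1 family, 14 had a probe set named here, and the other 12 besides PRA7 and PRA8 are the genes with the symbol PRA and a number. None of the 12 passed in limma, with 1 (PRA1.B2) at an unadjusted p under 0.05, against 3.55% of named genes higher, 17.4% lower and 36.6% at such a p. Their median change was 0.0028, against -0.10 over all named genes, with a range of -0.38 to 0.15. Both ends of this range came from genes not above noise on every array (PRA1.B6 and PRA1.B3), and the median includes PRA1.G1, which was 0 by the floor. Of the 12, 7 were above noise on every array, with a median of -0.012 and a range of -0.22 to 0.094. Under spike scaling 4 of the 12 were called lower, as were 37.9% of all named genes. The median of the 12 was then -0.34, near the -0.28 of all named genes. After quantile normalization the median of the 12 was 0.22, with 0 called.

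In the B group, PRA1.B2 had the lowest change among genes above noise on each array. It read 145 and 154 on the mock arrays and 127 and 124 on the ABA arrays (log2 change -0.22, SE 0.041, limma adjusted p = 0.0567), and quantile normalization turned it to 0.035. PRA1.B4 read 106 and 107 on the mock arrays and 98.9 and 91.9 on the ABA arrays, a change of -0.13 that quantile normalization turned to 0.14. In both genes the ABA arrays lay below the mock arrays without overlap, as in 45.5% of the named genes. PRA1.B1 had overlapping groups, at 108 ± 3.37 in mock and 109 ± 5.94 in ABA shoots.

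PRA1.B6, whose product acts in transport from the endoplasmic reticulum to the Golgi apparatus, had the widest spread of the family. Its ABA arrays read 7.35 and 21.5 and its mock arrays 20.2 and 25.2. The change of -0.38 (SE 0.30) came mostly from ABA replicate 1, and without that array it was -0.041. PRA1.B3 and PRA1.B5 lay near noise, at 14.1 or less on each array, with overlapping groups and changes of 0.15 and 0.079.

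Outside the B and F groups, PRA1.A1 read 50.1 ± 2.19 in mock and 49.5 ± 2.58 in ABA shoots, with a change of -0.012. PRA1.E read 58.6 ± 0.398 and 62.9 ± 4.78, a change of 0.080 (SE 0.056). Its groups did not overlap, as for PRA7 and PRA8 and for 12.8% of the named genes, with 0.643 units between them at the closest. PRA1.H read 28.9 ± 1.33 and 25.8 ± 4.59, with overlapping groups. PRA1.G1 was below 0 on every array and carries no change. The signs of PRA1.A1, PRA1.E and PRA1.H differ between scalings, as do those of PRA1.B1, PRA1.B3, PRA1.B5 and PRA1.F1.

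**Figure D4:**
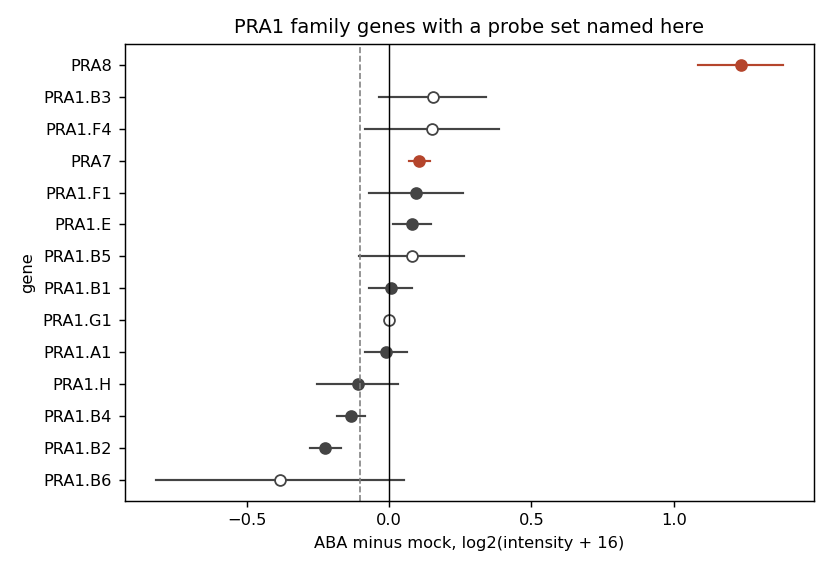
Log2 change (ABA minus mock) of 14 PRA1 family genes. Points are mean changes, and lines span the 4 differences between an ABA and a mock array. Open points are genes not above noise on all 4 arrays, the dashed line is the median of named genes (-0.10), and PRA7 and PRA8 are red. The line of PRA8 (1.09 to 1.38) is clear of all others.

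Genes that work beside PRA1 proteins were sparsely named, so these lists show only a part of the machinery. Of 57 Rab GTPase loci 3 were named, and 0 passed in limma, with 0 at an unadjusted p under 0.05. Against the shares over all named genes given above, 0 of so few genes says little. AT5G59840, entered in the list by its locus, had a change of 0.25 (SE 0.16), and ARA6, a plant-specific endosomal Rab, 0.13 (SE 0.16). The signs of both turn under spike scaling. Of 53 SNARE loci, whose proteins fuse vesicles with their targets, 2 were named and 0 passed, with 0 at an unadjusted p under 0.05. YKT61 read 299.9 ± 3.98 in mock and 316 ± 6.93 in ABA shoots, a change of 0.071 that turns to -0.38 under spike scaling, and ATYKT62 (-0.071) lay below noise.

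Of 15 Rab regulator loci 4 were named and 2 passed in limma, both lower. In 3 of the 4 both ABA arrays lay below both mock arrays, against 45.5% of the named genes. The other gene was below 0 on every array, so its change was 0 by the floor. VPS9B, which resembles the activator of endosomal Rab5-type GTPases, read 24.6 and 24.1 on the mock arrays and 11.2 and 14.6 on the ABA arrays (log2 change -0.48, SE 0.076, limma adjusted p = 0.0465). AT1G80910, listed as CCZ1b, a subunit of the activator of Rab7-type GTPases, fell by 0.40 (limma adjusted p = 0.0491). The list's median was -0.42, against -0.10 over all named genes, of which 17.4% were called lower. With the filter at the 40th percentile, the 3 genes kept had a median of -0.45. The named genes kept had a median of -0.29, with 48.2% called lower. With 1 array left out, the changes were -0.57 to -0.40 for VPS9B and -0.47 to -0.33 for AT1G80910. Neither fall passed after quantile normalization (-0.25 and -0.12).

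Of 20 loci listed for the COPII coat, which carries cargo out of the endoplasmic reticulum, 8 were named. In limma 2 passed as lower and 0 as higher. All changes were below 0, from -0.48 to -0.021, with a median of -0.17. In 6 of the 8 both ABA arrays lay below both mock arrays, against 45.5% of the named genes. Over all named genes 17.4% were called lower and 3.55% higher, with a median of -0.10, so the count of coat genes called is near the share of the array. Those shares include many dim genes, while all 8 were above noise on each array. With the filter at the 40th percentile, the named genes kept had a median of -0.29, with 48.2% called lower. The 8, all kept, had a median of -0.17, with 37.5% called lower, so they did not fall more than other genes kept. AT3G63460, listed as SEC31B, an outer coat subunit, went from 91.5 ± 6.66 to 64.5 ± 1.02 (n = 2 each; log2 change -0.41, SE 0.058, limma adjusted p = 0.0395). AT5G47490, entered in the list by its locus, was dimmer, at 18.6 ± 0.782 in mock and 12.7 ± 0.656 in ABA shoots. It fell by 0.27 (limma adjusted p = 0.0339). After quantile normalization neither passed and the list's median was 0.061.

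**Figure D5:**
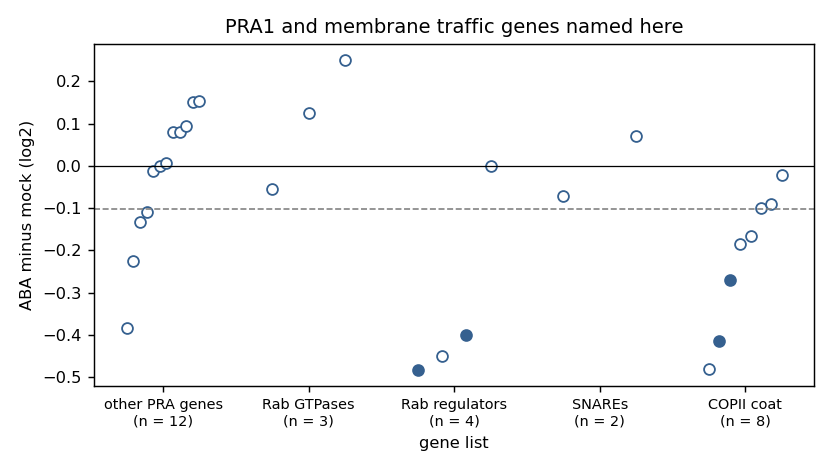
Log2 change (ABA minus mock) of the other 12 PRA1 genes and of named members of 4 membrane traffic lists. Filled points passed in limma, open points did not, and the dashed line is the median of named genes (-0.10). The 4 filled points, all lower, are in the Rab regulator and COPII lists.

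The pattern of a gene was its log2 values on the 4 arrays less their mean, and likeness was the Euclidean distance over the 4 arrays among 11370 other named genes. The 5 nearest to PRA8 were AT4G21930 (distance 0.030), AT4G33540 (0.075), AT4G22530 (0.082), AT5G44050 (0.091) and AT4G30460 (0.11). AT4G33540, the brightest of these, read 323 ± 5.66 after ABA and 123 ± 13.1 in mock shoots, a ratio of 2.63 beside the 2.78 of PRA8. AT4G21930 was near 0 in mock shoots, at 1.69 ± 2.72, so its likeness holds on the log2(intensity + 16) scale, where its change was 1.23.

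The 5 nearest to PRA7 were AT4G04390 (distance 0.0093), AT4G07500 (0.017), AT1G05070 (0.019), AT3G29630 (0.019) and AT4G10970 (0.020). AT4G04390, AT4G07500 and AT3G29630 lay below noise on each array. AT1G05070 read 59.6 ± 0.227 after ABA and 54.9 ± 1.63 in mock shoots, and AT4G10970 read 68.2 ± 1.72 and 62.4 ± 2.79. The patterns of PRA7 and PRA8 were 1.15 apart, which largely restates the difference of 1.13 between their log2 changes. Neither was among the 5 nearest to the other.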

How the data were processed

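Amplified, biotin-labelled RNA was hybridised to 1-colour arrays, per the labels' protocols. The authors deposited 1 intensity per probe set and array, on a linear scale. How the authors corrected and scaled these deposited values is not stated in the labels or the file. Between 12.8% and 13.7% of tested probe sets were below 0 on each array, and array medians were 12.4 to 17.0.

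Of 19658 probe sets, 287 control sets were left out and 19371 tested. Gene symbols were taken from the platform annotation and brought to TAIR10.1 by gene identifier (11547), by locus (45) or kept (6). Of these probe sets 11598 had 1 name, 0 several, and 7773 are unnamed here. The brightest probe set by mean over the 4 arrays stood for a gene.

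Negative intensities were raised to 0 and the comparison used log2(intensity + 16), which understates the change of dim genes. The floor at 0 and the constant follow earlier work on these data. The treatments were compared with limma 3.58.1 (R 4.3.3; moderated two-sided test from lmFit and eBayes, no block), with Benjamini-Hochberg p-values adjusted over all 19371 probe sets and a threshold of 0.05. The fit was also run on simulated data with independent errors, spreads shuffled across probe sets and no shift between arrays. Such data lack the scaling differences seen here, so nothing about the calls is read from that run.

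The members and the gene lists were chosen with earlier results of these data known. The genes named are every PRA1 gene with a probe set, up to 3 members past the threshold per traffic list (the 2 largest changes where none passed), and the 5 genes nearest in pattern to each member. Other pseudocounts, scalings, a filter, a replicate block and leaving out each array were tried. The labels state no pairing of replicate numbers.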

Additional observations from a re-analysis of the deposited data

How the results depend on the processing

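PRA8, which was picked on this comparison, was higher after ABA under every setting tried. Its log2 change was 1.46 and 0.83 with pseudocounts of 1 and 64, 1.51 with quantile normalization, 1.44 with median centring, 0.84 with spike scaling, and 1.10 to 1.37 with 1 array left out. PRA7 was at 0.14 and 0.062 with these pseudocounts, 0.41 with quantile normalization, 0.31 with median centring, -0.26 with spike scaling and 0.081 to 0.13 with 1 array left out. Leaving out any array leaves 1 array in a treatment, so no calls are read from those fits. With the replicate block 0 probe sets were called and 7115 had an unadjusted p under 0.05. The block adds a term to a fit of 4 arrays, which leaves less to estimate spread from, while the changes stay the same. Same-numbered arrays deviated from their group means with r = 0.039 across probe sets, so the numbers are not taken as pairs. As deposited, 769 probe sets were higher and 3805 lower (83.2% lower), against 895 and 1016 with quantile normalization (53.2%), 1878 and 2424 with centring on medians (56.3%), 525 and 8085 with spike scaling (93.9%) and 1063 and 5809 with the filter, which tested fewer probe sets. Of all named genes 17.4% were called lower as deposited, 37.9% under spike scaling and 48.2% with the filter. The lower calls among the other 12 PRA genes went from 0 to 4 under spike scaling. For Rab GTPases and SNAREs they went from 0 to 1 each under spike scaling, while 1 SNARE and 1 COPII gene were called higher after quantile normalization. The 2 lower Rab regulators became 0 with a pseudocount of 1, after quantile normalization, after median centring and with the block. They became 1 with a pseudocount of 64, and 3 of the 3 tested with the filter. The 2 lower COPII genes became 1 with a pseudocount of 1, 7 under spike scaling and 3 of 8 with the filter. They became 0 with quantile normalization, median centring and the block. Signs turned under spike scaling for PRA1.E (-0.30), PRA1.F1 (-0.17), PRA1.B1 (-0.41), PRA1.B5 (-0.068), PRA1.B3 (-0.030), ARA6 (-0.29), AT5G59840 (-0.13), YKT61 (-0.38), AT1G05070 (-0.28) and AT4G10970 (-0.28). They turned after quantile normalization for PRA1.B4 (0.14), PRA1.B2 (0.035), PRA1.H (0.16) and PRA1.A1 (0.30), and after median centring for PRA1.B4 (0.067), PRA1.H (0.092), PRA1.A1 (0.19) and ATYKT62 (0.13). With 1 array left out, signs varied for PRA1.F1 (-0.043 to 0.23), PRA1.F4 (-0.038 to 0.34), PRA1.B1 (-0.043 to 0.054), PRA1.H (-0.22 to 0.0029), PRA1.B5 (-0.061 to 0.22), PRA1.A1 (-0.052 to 0.028), ARA6 (-0.055 to 0.31) and ATYKT62 (-0.18 to 0.034). Beyond the scaling itself, the cause of these moves was not tested. Probe sets near noise carry the least precise changes.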
